A study of Mus musculus with 9 samples.

Results

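The genes described here encode the proteins of the cytosolic ribosome. They are the 83 gene symbols of the form Rpl or Rps with a number, Rplp0 to Rplp2 and Rpsa, among the 23319 symbols counted in 9 RNA-seq libraries of mouse cortical interneurons at postnatal day 5. Of the 83 members, 51 belong to the large subunit and 32 to the small subunit. The 3 groups were Nkx2.1-CreER;Ai47 cells from mice given tamoxifen on embryonic day 17, SOM-Cre;Ai47 cells and VIP-Cre;Ai47 cells, with 3 libraries each. Ai47 is a reporter that makes cells fluoresce green where Cre has acted, and all 9 libraries carried it. Each library came from 150 green cells picked by hand from layer 2/3 strips cut from the anterior cingulate and medial prefrontal cortex. The driver lines limit what the groups are: a cell is in a group because its lineage used the Nkx2-1, Sst or Vip gene promoter, and in the CreER line only where tamoxifen made the recombinase active. The labels do not tell whether libraries of 1 line are from different animals. The p-values therefore reflect the variation among these samples alone, and that variation may be technical.

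The ribosome has a small subunit, which decodes the mRNA, and a large subunit, which joins amino acids into a chain. Each ribosome carries 1 copy of most of its proteins, and proteins made in excess of their partners are normally degraded. Ribosomal protein mRNAs are short and abundant in most cells, many begin with a run of pyrimidines that ties their translation to mTOR signalling, and they have left many processed pseudogenes in mammalian genomes. In developing neurons, ribosomes supply the protein for growing axons and dendrites.

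A library held between 6484488 and 12465997 reads in genes, and 3 reads, the floor used here for an absent gene, came to 0.246 to 0.445 CPM (counts per 1000000 reads in genes, with library sizes scaled by TMM). Alignments that were not unique made up 64.5% to 68.0% of the table totals, in an entry that names no gene. Genes with at least 1 read numbered 8180 to 10576 for Nkx2.1, 10923 to 11490 for SOM and 9672 to 10927 for VIP. Vip was at 411 to 801 CPM in the VIP libraries and at most 3.50 CPM elsewhere, and Sst was at 1445 to 2165 CPM in the SOM libraries and at most 35.9 CPM elsewhere. Nkx2-1 itself reached only 1.35 CPM in the Nkx2.1 libraries. There 6 chandelier cell markers summed to 3041 to 4581 CPM, against 300 to 432 CPM in SOM and 693 to 1490 CPM in VIP. Of these 6, Pthlh did not follow the sum, with 49.1, 0 and 0 CPM in Nkx2.1. Its level was at most 0.229 CPM in SOM but 0.123, 62.3 and 43.3 CPM in VIP. Markers of GABAergic neurons summed to 3175 to 7024 CPM in the 9 libraries and those of excitatory neurons to 3.55 to 310 CPM. Summed levels of 8 microglial, 7 vascular and 5 counted erythrocyte markers were at most 17.8, 17.6 and 7.31 CPM in any library.

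Reads assigned to ribosomal protein genes made up a small share of the reads in genes. Alignments that were not unique, 64.5% to 68.0% of the table totals, are outside both counts. The share is therefore not that of ribosomal protein mRNA in the cells. All 83 members together held 0.311%, 0.342% and 0.248% of reads in genes in Nkx2.1 libraries 1 to 3. The SOM libraries had 0.218%, 0.246% and 0.223%, and the VIP libraries 0.274%, 0.171% and 0.214%. The group means were 0.300% ± 0.048 for Nkx2.1, 0.229% ± 0.015 for SOM and 0.220% ± 0.052 for VIP (SD, n = 3). The Nkx2.1 mean was 1.31 times the SOM mean, and all 3 Nkx2.1 libraries lay above all 3 SOM libraries, though narrowly (0.248% against 0.246% for the nearest libraries). The Nkx2.1 mean was 1.37 times the VIP mean with overlapping libraries, and the SOM mean was 1.04 times the VIP mean, also with overlap. In samples of pooled cells, a smaller share of a cell type and less RNA per cell cannot be told apart. No p-value is given for the sum, since its members were chosen with results of these data known.

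The separation of Nkx2.1 from SOM rested on few genes. The libraries overlapped when Rps15a was left out (ratio 1.21), when the most abundant member, Rpl4, was left out (ratio 1.27), and when 4 ribosomal proteins outside the symbol rule were added (ratio 1.23). Leaving out 1 library gave ratios from 1.22 to 1.42. Removing a library cannot make 2 separate groups overlap, so this is no check of their separation. Nkx2.1 and VIP libraries no longer overlapped once VIP library 1, which had the highest VIP share, was left out (ratio 1.56), or once Nkx2.1 library 3 was left out (ratio 1.49). Without VIP library 1, SOM also lay above VIP (ratio 1.19). Scaling by TMM factors, which compensate for differences in RNA composition, put the means at 0.329%, 0.223% and 0.210%, so that Nkx2.1 stood 1.48 times above SOM and 1.56 times above VIP, the latter still with overlap.

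Markers of other cell types also differed between the groups. All 9 astrocyte markers on the list had a read in some library, and together they reached 3550, 664 and 253 CPM across Nkx2.1 libraries 1 to 3, 63.9 to 220 CPM among SOM libraries and 262 to 412 CPM among VIP libraries. Nkx2.1 thus lay wholly above SOM and overlapped with VIP, and SOM lay below VIP. All 9 oligodendrocyte lineage markers had a read too, and summed to 259 to 608 CPM in Nkx2.1, 141 to 339 CPM in SOM and 1.84 to 128 CPM in VIP, with Nkx2.1 wholly above VIP. Every Nkx2.1 library also had fewer genes with a read than every SOM library, while Nkx2.1 and VIP overlapped. The part of these differences in the ribosomal protein sum was not tested.

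**Figure D1:**
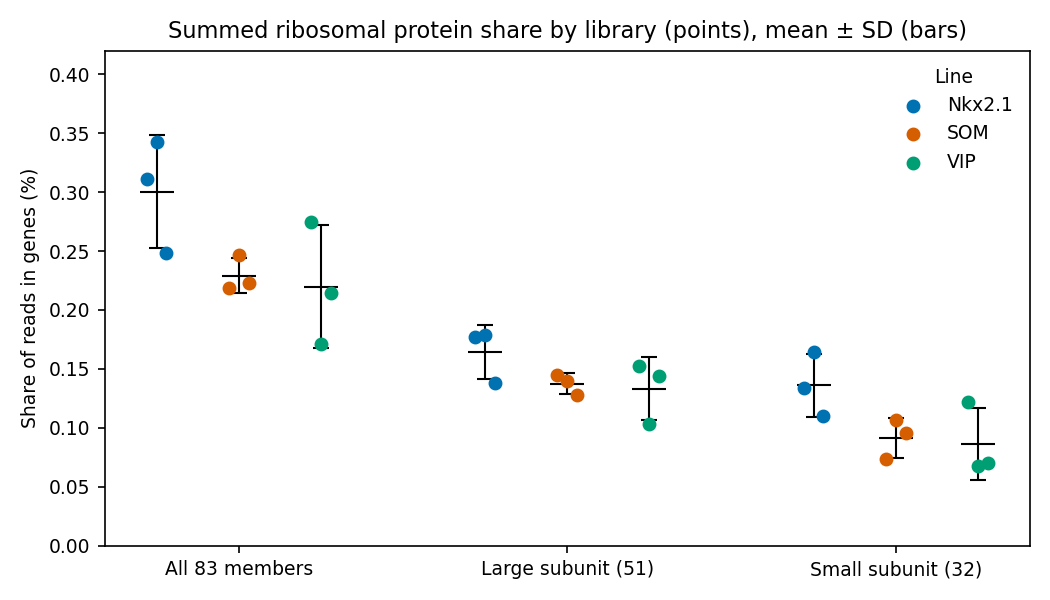
Summed reads of ribosomal protein genes as a percentage of reads in genes (y axis) for all members, the large subunit and the small subunit. Points are libraries coloured by line, horizontal marks are means of 3 libraries and bars are SD; Nkx2.1 points for all members sit at 0.248% to 0.342% and SOM points at 0.218% to 0.246%.

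The sums of the 2 subunits cover unequal numbers of genes, 51 large and 32 small. A ratio of the sums above 1 is therefore no measure of excess per gene. Large subunit genes held 0.164% ± 0.023 of reads in the Nkx2.1 libraries, 0.137% ± 0.009 in SOM and 0.133% ± 0.027 in VIP (SD, n = 3), with overlap in each comparison. Small subunit genes held 0.136% ± 0.027, 0.0917% ± 0.017 and 0.0866% ± 0.030. The small subunit sum was 0.110% to 0.164% in Nkx2.1 against 0.0732% to 0.107% in SOM, without overlap, and it overlapped with SOM once Rps15a was left out (0.0957% to 0.125% against 0.0731% to 0.106%). VIP, which overlapped with Nkx2.1 before, then lay wholly below it at 0.0613% to 0.0886%. Large subunit reads were 1.22 ± 0.12 times small subunit reads in Nkx2.1, 1.54 ± 0.38 times in SOM and 1.61 ± 0.41 times in VIP. The ratio ran from 1.09 to 2.06 over all 9 libraries, and its ranges overlapped between every pair of groups.

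The members differed greatly among themselves although the ribosome holds its proteins in near equal number. Per kilobase of transcript, the mean level over 9 libraries was 0 for 6 members and, among the most abundant, 296 CPM per kb for Rpl22, 264 for Rpl8, 239 for Rps15a and 220 for Rpl4. The 6 members with the most reads held 49.6% to 63.8% of all member reads in a library. In single libraries 64 to 72 of the 83 members had a read, and 77 had a read in at least 1 library.

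Rps3 was the small subunit gene with the least spread among the members of at least 100 CPM. It encodes a protein at the mRNA entry side, which is also a DNA repair factor, and lies at chr7:99477896-99483738 (GRCm38, minus strand), with a mean of 153 CPM per kb. Rps3 stood at 413, 401 and 310 CPM in Nkx2.1, 271, 330 and 343 CPM in SOM and 225, 153 and 179 CPM in VIP. Both Nkx2.1 and SOM lay wholly above VIP, and its coefficient of variation (CV) over the 9 libraries, 0.316, was the lowest of the 7 members of at least 100 CPM.

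Rps15a, a small subunit protein, was the opposite case. Its CV of 1.08 was the highest of those 7 members, with 344, 412 and 144 CPM in Nkx2.1, 1.27, 6.52 and 75.8 CPM in SOM and 329, 60.6 and 1.23 CPM in VIP. All Nkx2.1 libraries lay above all SOM libraries, and the VIP libraries spanned both. Rps9, which lies near the mRNA entry, stood at 64.8 to 174 CPM, with all groups overlapping.

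Among large subunit genes, Rpl4 had the most reads of any member, 30067 in all. Its product lines the exit tunnel for the nascent chain, and the gene lies at chr9:64173375-64178666 on the plus strand. Rpl4 was at 647, 447 and 440 CPM in Nkx2.1, 271, 295 and 312 CPM in SOM and 224, 132 and 277 CPM in VIP. Nkx2.1 was above the other 6 libraries in all 3 of its own, while SOM and VIP overlapped. Rpl8, a protein near the peptidyl transferase centre, was at 136 to 352 CPM with overlap in each comparison. Rpl22, which is not needed for translation itself and binds RNA outside the ribosome, was at 232, 9.90 and 87.5 CPM in Nkx2.1, 243, 93.5 and 192 CPM in SOM and 97.6, 104 and 204 CPM in VIP. Rpl15 was at 357, 90.7 and 43.8 CPM in Nkx2.1 but at a narrow 143 to 184 CPM in SOM, above the 58.2 to 139 CPM of VIP.

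**Figure D2:**
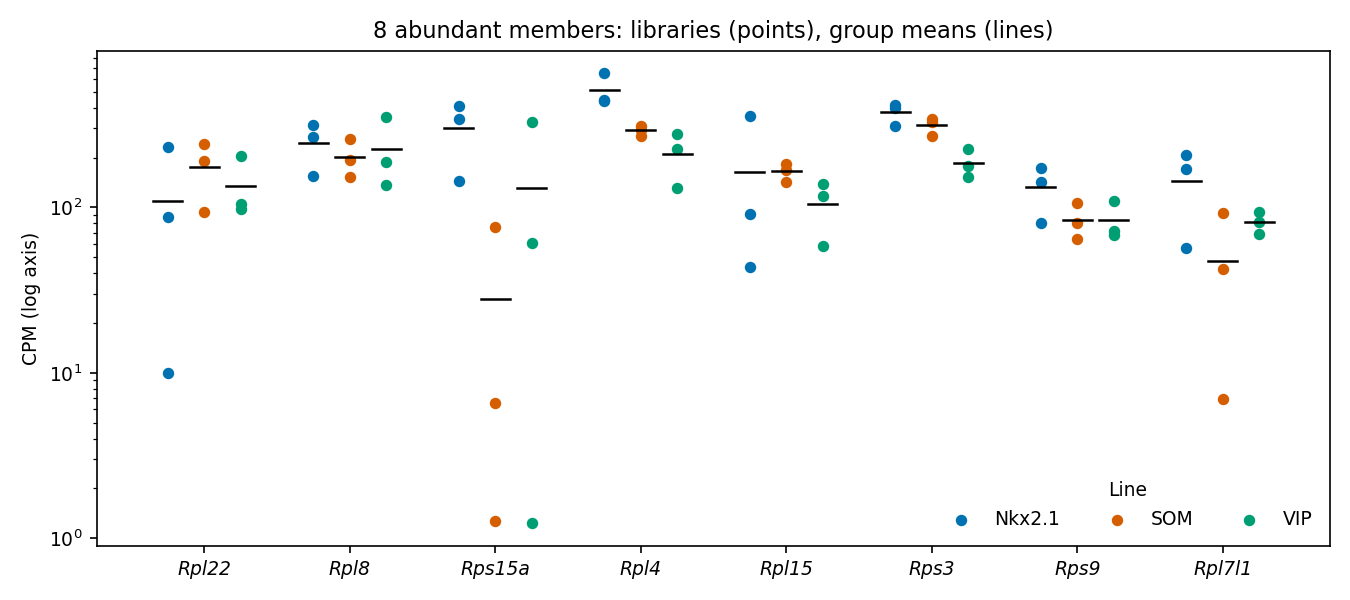
Level in CPM (log axis) of 8 of the most abundant members, in order of mean CPM per kb from left to right. Points are the 3 libraries of each line and short lines are group means. Rps3 and Rpl4 spread less than Rps15a, which runs from 1.23 to 412 CPM.

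The position of a member in this order went with how much of its coding sequence is its own. For each gene, the share of 50-base windows of its coding sequence that occur exactly in the transcripts of another gene, pseudogenes included, was counted in the GENCODE M21 annotation of GRCm38. A read from a shared window can align to more than 1 place, and the tables hold alignments that were not unique in an entry of their own, outside the gene counts. For 68 of the 83 members (81.9%) at least 50% of windows were shared, against 8.57% of 19211 other protein-coding genes counted. The median member shared 90.3% of its windows and the median other gene 0%. In 29 members every window was shared, and in 3 none was.

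The first 90 coding bases of 2 members, read from the GENCODE transcripts, show both ends of this range, with capitals for bases in at least 1 window that no other gene holds. Rps3 is among the 10 most abundant per kilobase, and Rps27 had no read in any library.
Rps3: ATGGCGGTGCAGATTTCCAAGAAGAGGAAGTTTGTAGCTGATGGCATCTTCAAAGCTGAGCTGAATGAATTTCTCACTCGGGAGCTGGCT
Rps27: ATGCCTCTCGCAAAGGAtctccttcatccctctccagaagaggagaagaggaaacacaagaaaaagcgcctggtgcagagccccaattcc
All 90 bases are capitals in Rps3. In Rps27 there are 17 capitals, all in windows that begin upstream of the start codon, since every window within its coding sequence is shared.

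The 15 members with under 50% of windows shared had a median level of 69.7 CPM per kb and held 61.9% of all member reads. Median levels were 8.22 CPM per kb for the 24 members at 50% to under 90%, 7.36 CPM per kb for the 15 at 90% to under 100% and 7.17 CPM per kb for the 29 at 100%. Spread went the other way. Among the 68 members with enough reads to be tested, the median CV was 0.445, 0.725, 0.982 and 1.25 from the least to the most shared class. Other tested genes had median CVs of 0.964, 0.953, 0.884 and 0.885 in the same classes. Over the 68 members, Spearman's rho was 0.62 between shared windows and CV and -0.38 between shared windows and CPM per kb (-0.19 over all 83 members), as descriptions across genes of the same 9 libraries, which are not independent replicates. Median level fell as shared sequence rose, mostly from the first class to the next, and it changed little over the last 3 classes. The parts of level and of shared sequence in the spread were not separated.

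Exceptions ran in both directions. Rpl15 had 12159 reads although all of its coding windows are shared with other genes. Rpl41, Rpl5 and Rpl21 were at 54.4, 43.9 and 33.9 CPM per kb with all coding windows shared. The measure leaves out untranslated sequence, from which reads can also come. Rpl3l, with none shared, had 14 reads, all in SOM library 2. Rps14, with 51.7% shared, had the lowest CV of the 68 members, 0.221, at 17.7 to 43.8 CPM. The read length is not given in the sources used here, so the window of 50 bases is a choice.

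**Figure D3:**
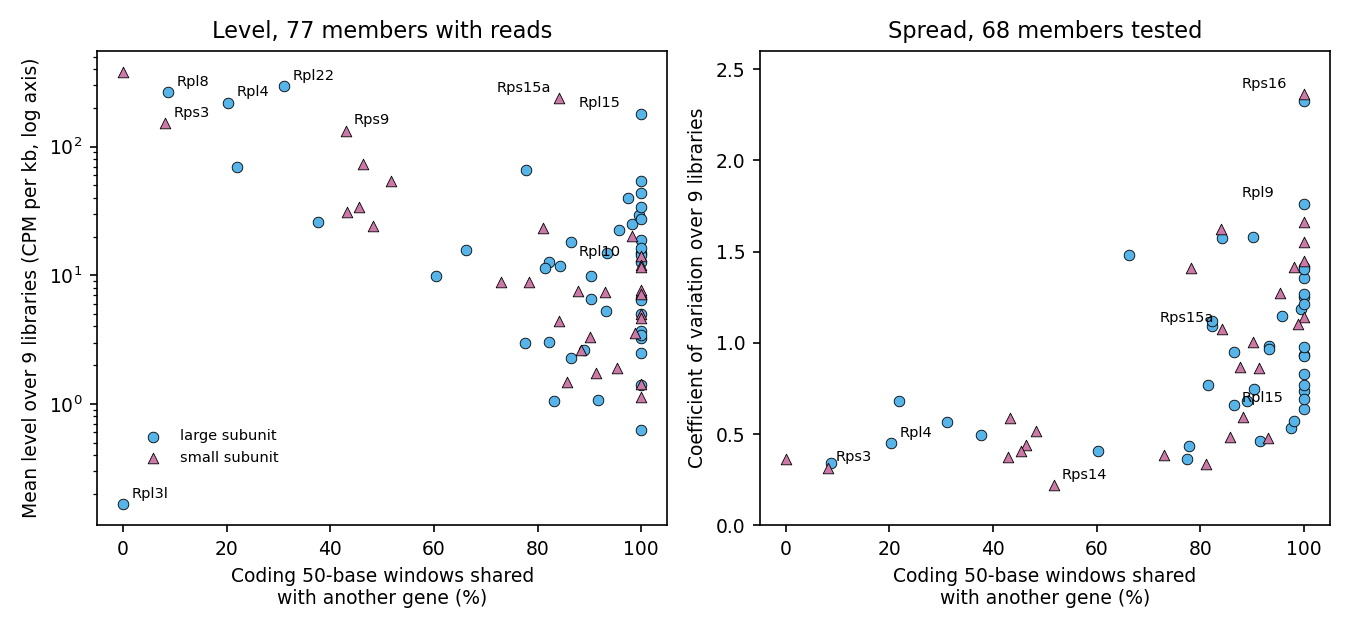
Share of coding 50-base windows found in another gene (x axes, %) against the mean level in CPM per kb on a log axis (left, 77 members with reads) and against the CV over 9 libraries (right, 68 members tested). Circles are large and triangles small subunit genes; members with few shared windows sit high on the left panel and low on the right panel.

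For 17 members, 1 of the 9 libraries held over 50% of the gene's summed CPM. They include Rpl3l and 16 members with at least 66.2% of windows shared, where the median over all members was 90.3%. The share of all genes past the same 50% line was not counted, so the 17 cannot be called unusual. Rpl24, a large subunit protein that helps to bridge the subunits, was at 90.7 CPM in Nkx2.1 library 3 and at 0 to 0.123 CPM in the other 8, so that 1 library held 99.7% of its level. Rps29, a small zinc-binding protein, was at 36.5 CPM in VIP library 1 and at most 3.41 CPM elsewhere. Rps13 was at 60.1 CPM in Nkx2.1 library 2, at 13.9 CPM in SOM library 3 and at most 0.414 CPM elsewhere. Rps16 was at 57.2 CPM in Nkx2.1 library 1 and Rpl10 at 72.4 CPM in VIP library 1, with at most 10.8 and 6.57 CPM in any other library. The high library differed from gene to gene and included libraries of all 3 lines. A CV above 1 was reached by 27 of 68 tested members (39.7%) and by 47.8% of all 10728 tested genes.

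**Figure D4:**
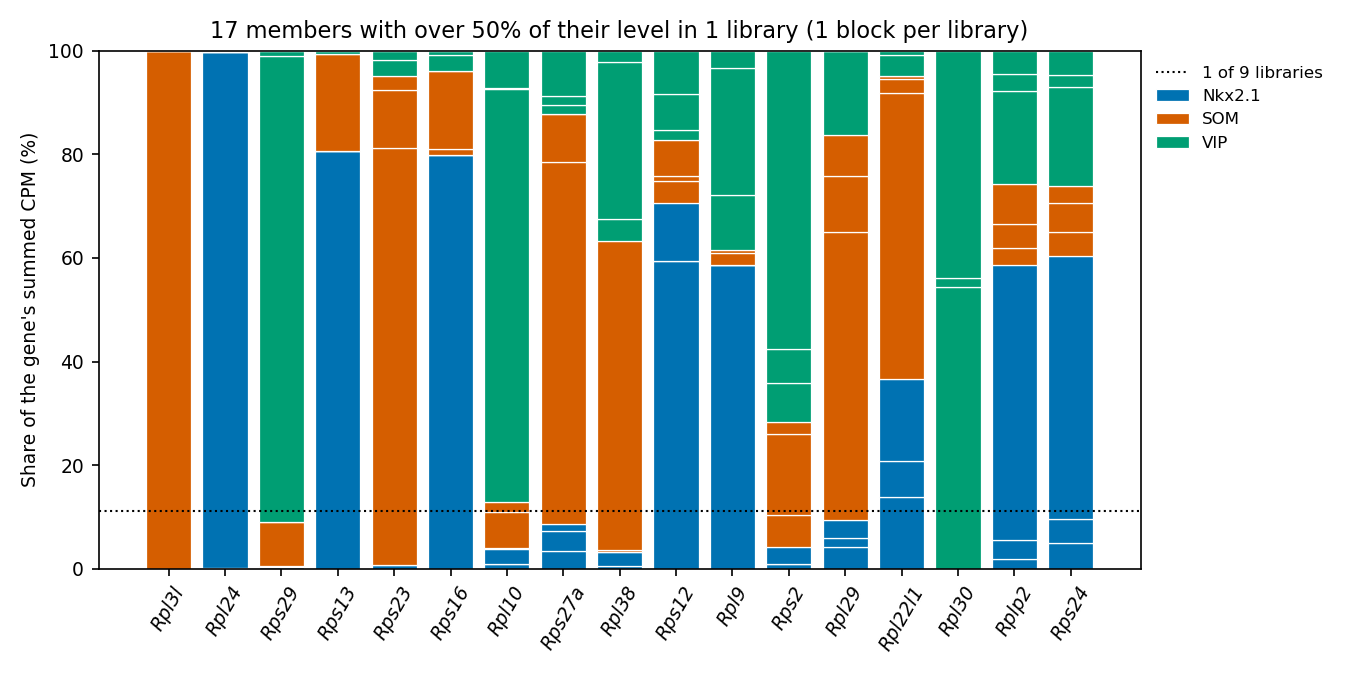
Share of each gene's CPM summed over 9 libraries (y axis, %) that came from each library, for the 17 members with over 50% in a single library. Each block is 1 library coloured by line and the dotted line is an equal share; Rpl24 is almost wholly 1 Nkx2.1 library and Rps29 mostly 1 VIP library.

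A further 6 members had 0 reads in all 9 libraries: Rpl10l, Rpl26, Rpl34, Rpl39l, Rplp1 and Rps27. A count of 0 allows a level of up to 0.246 to 0.445 CPM in a library, for counting error only. Rpl10l and Rpl39l are paralogs known mainly from the testis, and with 12.5% and 0% of windows shared they had sequence of their own that reads could have matched. Rpl26, Rpl34, Rplp1 and Rps27 are general components of the ribosome in all tissues. Of their coding windows 87.3%, 72.2%, 60.4% and 100% were shared. Members with coding windows shared as widely, such as Rpl15, did have reads, though untranslated sequence is not part of this measure. Whether the counting passed over any of these 4 genes was not tested beyond the following.

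Rplp1, which with Rplp2 and Rplp0 forms the acidic stalk that recruits elongation factors, stood out by its place. It lies on the minus strand of chromosome 9 (chr9:61913284-61914542). Of 521 protein-coding genes counted on that strand of chromosome 9, 93.1% had no read in any library, against 33.6% of 586 on the plus strand and 34.6% of all 19296 counted protein-coding genes. All 20 of its nearest protein-coding neighbours on the minus strand were without reads, and 1 of the 20 nearest on the plus strand was. The elongation factor gene Eef1a1, normally among the most abundant mRNAs of a cell, also had 0 reads in all 9 libraries. The 6 other members on chromosome 9 (Rpl4, Rpl14, Rpl29, Rps25, Rps27l and Rpsa) are all on the plus strand, and all had reads, from 463 for Rpsa to 30067 for Rpl4. For the other 5 members without reads, 16.5% to 29.4% of genes on their own chromosome and strand had none.

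Several members have a paralog in the set, and the better known gene of a pair was not always the one with reads. Rps27 had 0 reads and Rps27l, a paralog known as a target of p53, had 1044. Rpl7 had 301 reads against 8208 for Rpl7l1, at 2.97 and 69.7 CPM per kb. In the reverse order, Rpl22 had 12120 reads against 584 for Rpl22l1, Rpl3 had 2669 against 14 for the muscle paralog Rpl3l, and Rpl10 and Rpl39 had 770 and 114 against 0 for Rpl10l and Rpl39l. Windows shared with other genes numbered 77.5% in Rpl7 but 21.9% in Rpl7l1, and 95.7% in Rpl3 but 0% in Rpl3l, so the member of a pair with more reads was not always the less shared one. Levels of such pairs are uncertain where reads could be assigned to either copy.

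Rps27 and Rps27l have coding sequences of 252 bases each, of which 76.2% are identical. Their first 90 coding bases are shown, with the 24 bases that differ in capitals.
Rps27: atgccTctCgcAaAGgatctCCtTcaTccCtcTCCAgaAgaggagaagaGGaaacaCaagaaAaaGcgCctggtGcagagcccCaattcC
Rps27l: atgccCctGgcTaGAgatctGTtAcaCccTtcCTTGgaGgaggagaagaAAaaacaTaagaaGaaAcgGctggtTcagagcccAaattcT
Rps27l lies at chr9:66946086-66949516 on the plus strand and Rps27 at chr3:90212522-90213651 on the minus strand. Rps27l stood at 22.0, 9.06 and 15.5 CPM in Nkx2.1, 7.32, 20.2 and 8.92 CPM in SOM and 2.58, 12.2 and 10.9 CPM in VIP, with all groups overlapping.

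The question of the 3 comparisons was whether ribosomal protein mRNAs differ in level between the interneuron lines. Of the 83 members, 68 had enough reads to be tested (41 large and 27 small subunit genes), 9 had reads but too few, and 6 had none. No member passed the edgeR quasi-likelihood test with Benjamini-Hochberg adjusted p under 0.05 in any comparison. The share of all 10728 tested genes that did was 0.0932% for Nkx2.1 against SOM, 0.308% for Nkx2.1 against VIP and 0.0746% for SOM against VIP, so few genes of any kind were called. At an unadjusted p under 0.05 there were 1, 3 and 0 members in the same order, against 11.3%, 15.2% and 6.99% of all tested genes. DESeq2 called 0, 2 and 0 members, against 7.07%, 11.7% and 3.54% of all genes tested.

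The fitted log2 fold changes of the members were centred near those of other genes. Their median was 0.26 for Nkx2.1 against SOM, -0.03 for Nkx2.1 against VIP and -0.24 for SOM against VIP, beside medians of -0.01, 0.00 and 0.00 over all tested genes. The middle 50% of members ran from -1.10 to 0.80, from -1.07 to 0.91 and from -0.77 to 0.58. Without VIP library 1 the last 2 medians became 0.49 and 0.26, so their signs depended on 1 library. Without Nkx2.1 library 1 the first became -0.12, beside a median of -0.33 over all genes in that fit. Without TMM factors the median of all genes moved to -0.16 in Nkx2.1 against SOM and to -0.18 in Nkx2.1 against VIP, and the members' medians became 0.07 and -0.24. Over all fits run, the member median minus that of all genes ran from 0.14 to 0.52 in Nkx2.1 against SOM, from -0.32 to 0.39 in Nkx2.1 against VIP and from -0.42 to 0.19 in SOM against VIP.

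**Figure D5:**
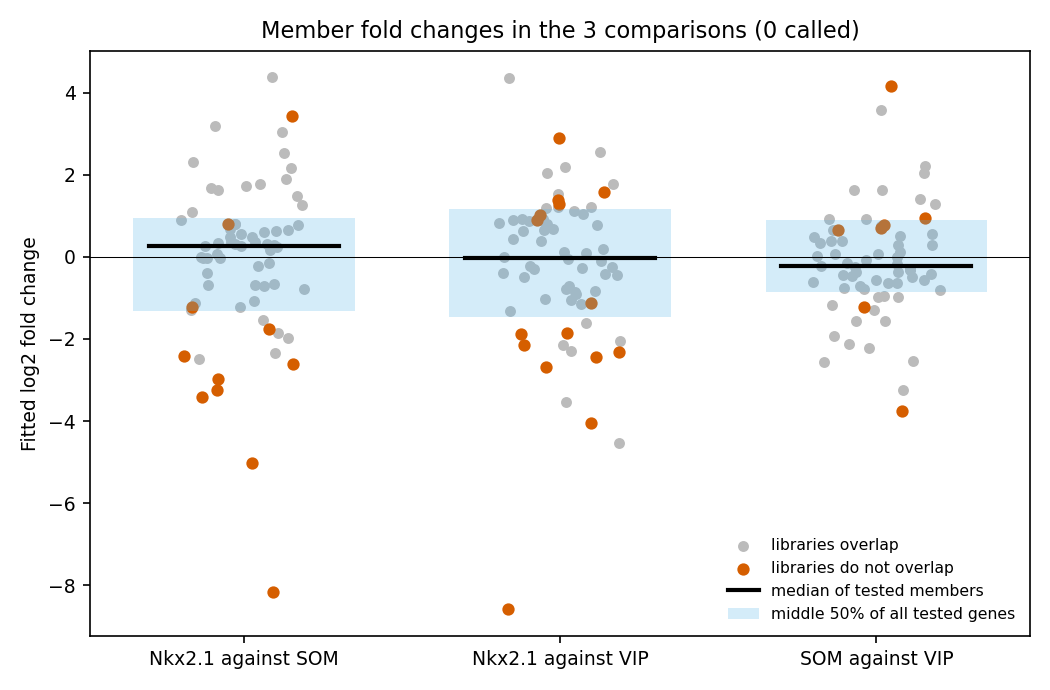
Fitted log2 fold change (y axis) of the 68 tested members in the 3 comparisons. Orange points are members whose libraries do not overlap between the groups, black lines are member medians (0.26, -0.03 and -0.24), and shaded boxes hold the middle 50% of all 10728 tested genes; the lowest points are Rpl17, which had no Nkx2.1 read, so that these values depend on the prior count of the fit.

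In Nkx2.1 against SOM, 2 tested members lay higher in all Nkx2.1 libraries and 9 lower, where 5.93% and 14.0% of all tested genes did so. The 2 higher were Rps15a and Rpl4. Rpl4 had a log2 fold change of 0.81 (SE 0.42, adjusted p = 0.513 in edgeR) and Rps15a one of 3.43 (SE 1.74, adjusted p = 0.505 in edgeR). The Rps15a value was 6.27 without SOM library 3, 2.87 without SOM library 1 and 2.97 without SOM library 2. Among the lower ones of at least 10 CPM in SOM were Rps6, Rpsa, Rpl27, Rpl29 and Rpl37a. Rps6, the small subunit protein that S6 kinase phosphorylates, was at 1.01, 0 and 0 CPM in Nkx2.1, 4.88, 17.9 and 11.0 CPM in SOM and 0, 1.86 and 0 CPM in VIP, so its reads were nearly all in SOM. Rpsa, also known as the laminin receptor precursor, was at 0.508 to 1.47 CPM in Nkx2.1 and 2.52 to 18.3 CPM in SOM. Rpl27 was at 0.508 to 2.74 CPM in Nkx2.1, 5.41 to 25.6 CPM in SOM and 6.73 to 9.96 CPM in VIP. All 5 lower genes have at least 81.5% of windows shared, and none passed the test.

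In Nkx2.1 against VIP, 6 tested members lay higher and 9 lower without overlap, where 7.29% and 12.9% of all tested genes did so. Rpl23, Rpl4 and Rps3 were among the higher ones of at least 10 CPM. Rpl4 was 2.42 times higher (log2 1.28, SE 0.42, adjusted p = 0.225 in edgeR) and Rps3 was 2.02 times higher (log2 1.02, SE 0.40, adjusted p = 0.277 in edgeR). DESeq2 gave Rpl4 an adjusted p of 0.0293 and Rps3 one of 0.0518. Rpl23, whose free protein also binds the p53 regulator Mdm2, was at 40.0, 36.4 and 22.3 CPM in Nkx2.1 and 5.90, 15.2 and 12.3 CPM in VIP. Rplp0, which anchors the stalk, was the lower one of at least 10 CPM, at 10.9, 7.70 and 6.30 CPM in Nkx2.1 against 21.9, 19.0 and 14.2 CPM in VIP. The abundant genes Rpl4 and Rps3 have 20.3% and 8.09% of windows shared.

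In SOM against VIP, 5 tested members lay higher and 2 lower, where 10.8% and 9.02% of all tested genes did so. Rps3 was 1.70 times higher in SOM (log2 0.76, SE 0.40, adjusted p = 0.868 in edgeR), the lowest adjusted p of any member in this comparison. Rps6, Rpl32 and Rpl15 were the other higher ones named. Rpl32 was at 15.4, 15.6 and 11.1 CPM in SOM and 7.62, 7.34 and 10.8 CPM in VIP, a narrow separation. Rpl9, with all windows shared, was lower in SOM (0, 3.70 and 1.03 CPM) than in VIP (17.6, 40.8 and 5.50 CPM), and in Nkx2.1 it was at 97.5, 0 and 0 CPM.

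Rpl17, a protein that lines the exit tunnel, was singled out after its values were seen, since it had the lowest adjusted p of any member. It had no read in any Nkx2.1 library, 6.26, 1.78 and 2.97 CPM in SOM and 1.84, 0.621 and 12.2 CPM in VIP. The floor of 3 reads in each library put its counted Nkx2.1 level at least 13.1-fold below the SOM mean. Against the VIP mean it was at least 17.5-fold lower. Both bounds allow for counting error in Nkx2.1 alone and take the SOM or VIP mean as exact. Single libraries carried these bounds: they were 8.47-fold without SOM library 1 and 4.40-fold without VIP library 3. The adjusted p was 0.313 and 0.170 in edgeR, and 0.0562 and 0.0255 in DESeq2. All coding windows of Rpl17 are shared, with 51 other genes, and only 267 reads were assigned to it in all 9 libraries.

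Many ribosomal protein mRNAs start with a pyrimidine run, and promoter sequences from RefSeq (GRCm38.p6) matched 63 of the 83 members. An unbroken run of 8 or more C or T on the coding strand that touched the 5 bases on either side of the annotated start was found in 21 of the 63 (33.3%) and in 9.11% of 16459 other genes. The windows of 3 members, from 10 bases before the start to 20 after, are shown with the run in capitals, because they represent an abundant member, one with all windows shared and one without reads.
Rps9: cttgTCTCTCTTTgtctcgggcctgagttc
Rpl15: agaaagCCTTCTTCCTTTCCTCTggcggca
Rps27: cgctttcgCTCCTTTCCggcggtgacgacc
The runs are 9 bases in Rps9, 17 in Rpl15 and 9 in Rps27. Other abundant members varied, with 14 bases in Rpl4 and 9 in Rps15a but 2 in Rps3 and 1 each in Rpl22 and Rpl7l1. The start used for Rpl15 lies 360 bases from its GENCODE start, and that for Rps9 48 bases. Positions are chr7:3704031-3704060 on the plus strand for Rps9, chr14:18270967-18270996 on the minus strand for Rpl15 and chr3:90213629-90213658 on the minus strand for Rps27. A run is a match of letters near an annotated start and says nothing of translation here.

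Other genes, mostly of the translation machinery, were counted from lists. The elongation factor list also held Tpt1 and Eef1e1, which are not elongation factors, and the ribosome biogenesis list held Nog, the gene for noggin. None of the 9 tested elongation factor genes (of 10), 37 initiation factor genes (of 39), 13 regulators of ribosomal protein mRNA translation (of 15), 54 ribosome biogenesis genes (of 57 in the table) or 73 mitochondrial ribosomal protein genes (of 76) passed the edgeR test in any comparison. Genes on the ribosome biogenesis list, which mostly process and assemble rRNA, summed to 4468 to 5523 CPM in the Nkx2.1 libraries. This was above 3199 to 3913 CPM in SOM and 3150 to 3991 CPM in VIP. The median log2 fold change of that list was 0.30 against SOM and 0.41 against VIP. The elongation factor list summed lower in Nkx2.1 than in SOM, at 751 to 1178 CPM against 1380 to 1616 CPM. Nkx2.1 overlapped with the 1041 to 1275 CPM of VIP. Of these sums, Eef1e1 made up 42.3 to 225 CPM over the 9 libraries. Eef1a1 is on the list but had 0 reads in all 9 libraries, so the sums do not describe elongation factor mRNA as a whole. Mitochondrial ribosomal proteins, which are shared far less (median 0% of windows), summed to 2489 to 2972 CPM over all libraries, and nuclear respiratory chain genes to 6970 to 11090 CPM, with 67 of 79 tested and none called.

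Reads assigned to Rn45s were lower in Nkx2.1, while no ribosomal protein gene passed the edgeR test in any comparison. Rn45s, the precursor of the rRNAs, was at 199, 169 and 121 CPM for Nkx2.1, 2684, 2173 and 982 CPM in SOM and 1641, 1212 and 1614 CPM in VIP, and it passed the edgeR test as lower in Nkx2.1 against both (log2 -3.57 and -3.18). How much rRNA was removed in library preparation is not given in the sources used here. Whether the Rn45s reads came from precursor or mature rRNA was not tested. Of the ribosomal proteins outside the symbol rule, Gnb2l1 (Rack1, a scaffold on the small subunit) stood at 231 ± 127 CPM in Nkx2.1, 307 ± 128 in SOM and 285 ± 74 in VIP (SD, n = 3), with 1.44% of windows shared. Fau and Rpl36al, with all windows shared, had 372 and 41 reads in all. By Pearson's correlation of log2 levels over 9 libraries, the non-member genes most like the summed share were Tada2a (0.956), Rbm25 (0.938), Ebna1bp2 (0.938), Atp5c1 (0.934) and Abhd11 (0.917), as a description with no test.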

How the data were processed

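The authors deposited 1 table of raw counts of reads by gene symbol for each library. The submitters' processing notes name TopHat2 2.0.9, DESeq2 and the build mm10 but give neither roles nor order. What counted the reads, whether by strand, with which annotation and at what read length is not given in the sources used here. As a result, reads from overlapping genes on opposite strands may thus be mixed. The 5 entries of each table that name no gene (83.6% to 85.2% of its total) were kept out of library sizes.

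Counts went into edgeR 4.0.16 (R 4.3.3, quasi-likelihood test). A single fit of the 9 libraries had a term for line, TMM factors and the filterByExpr filter (minimum count 10). Benjamini-Hochberg adjustment was over the 10728 genes kept, at 0.05. It left 6 residual degrees of freedom, and the common biological CV was 1.40. CPM are counts per 1000000 TMM-scaled reads in genes, and shares use reads in genes without TMM. The SE was computed back from the F statistic. CPM per kb uses the length of 1 representative transcript per gene in GENCODE M21. The test script was checked on simulated counts. DESeq2 1.42.0, RLE factors, library sizes alone, no filter, 2 groups at a time, the replicate number as a block and leaving out each library were alternatives.

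The members and lists were chosen with earlier results of these data known. Named in the text are members past the threshold, up to 5 per comparison and direction without overlap and of at least 10 CPM in the higher group, the 10 most abundant per kb, the most and least variable of at least 100 CPM, paralog pairs, members without reads, proteins outside the symbol rule and the 5 genes most like the sum. Genes named from the members held mostly by 1 library, the exceptions to the relation with shared windows, and Rpl17 were chosen after their values were seen. Symbols ending in a, such as Rpl7a, are separate proteins and were not treated as paralogs. Single values of some genes that this rule names are not reported here; all of them stay in the sums, counts and tests.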

Additional observations from a re-analysis of the deposited data

How the results depend on the processing

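In edgeR, 0 members passed the threshold in each comparison under every alternative run, including each library left out (0 to 0). DESeq2 called 2 members in Nkx2.1 against VIP, Rpl4 higher and Rpl17 lower, and none in the other comparisons. Of 255 refits of 17 single-gene fold changes, 254 kept their direction and their side of the threshold. The other 1 (Rpl4 in Nkx2.1 against VIP, log2 1.31 in DESeq2) passed it, and 0 reversed. The 17 were picked for groups without overlap in these same libraries, so leaving out a library could hardly reverse them. Their adjusted p was 0.225 or more in the main edgeR fit, so few could cross the threshold. The count is therefore no support for these fold changes. The replicate numbers did not pair the libraries (correlations of deviations from -0.048 to 0.068 over 9 same-numbered pairs and from -0.073 to 0.075 over 18 others), and with the replicate block 0 members were called.

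The summed share ran from 0.279% to 0.327% in Nkx2.1, 0.221% to 0.235% in SOM and 0.193% to 0.244% in VIP when 1 library was left out. It was 0.185%, 0.151% and 0.129% over members with under 50% of windows shared, and 0.116%, 0.0779% and 0.0908% over the others, 2 subsets chosen after seeing the data, as was leaving out Rps15a; fewer members make these sums smaller. In SOM it was 0.261% with the proteins outside the symbol rule and 0.199% without Rpl4. Members without reads numbered 6 to 7 when 1 library was left out. With 3 libraries a group and a biological CV of 1.40, most members have differences well within their spread. In a library 3 reads came to 0.246 to 0.445 CPM, so members not far above this level rest on few reads.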
